A study of Mus musculus with 25 samples.

Results

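Slc22a12, Slc2a9 and Abcg2 encode carriers of urate, and Slc5a1, Slc5a2, Slc5a4a and Slc5a4b encode sodium-coupled sugar carriers or their close relatives. These 7 mouse genes were followed across sperm RNA of males fed 5 diets. The genes were taken by symbol from a table of 47575 genes, and 6 of the 7 had a row there. The set was chosen with measured values in view, because Slc22a12 and Slc5a4b stood near 0 in control sperm and above it in Western diet sperm. The level of every member in WD against CD is therefore given as a description with no test, and Slc22a12 and Slc5a4b are tested in no comparison of CD or WD with another diet. The fit behind the tests still takes its spread from all 5 diets. Slc5a4a was not analysed here.

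All males were C57/BL6J mice, 8 weeks old at the start and fed for at least 8 weeks, and each group held 5 libraries from separate males. The control diet (CD) held 18% casein and 21% sugars. The low-protein diet (LPD) held 9% casein and 24% sugars. The Western diet (WD) held 19% casein, 34% sugars, 20% milk fat and 0.15% cholesterol. The methyl donor diets MD-LPD and MD-WD were the LPD and the WD with 5 g/kg choline chloride, 15 g/kg betaine, 7.5 g/kg methionine, 15 mg/kg folic acid and 1.5 mg/kg vitamin B12 added. Values are normalised read counts, which are counts per gene from the authors' quantification with StringTie, divided by a size factor of the library. Reads below are these counts before that division, and whether each stands for an observed read was not tested.

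Urate is the end of purine breakdown in humans, while mice degrade it further with urate oxidase. Slc22a12 (URAT1) exchanges urate for organic anions at the brush border of the kidney tubule, Slc2a9 (GLUT9) carries urate through the basolateral membrane, and Abcg2 pumps urate and many drugs out of cells. Slc5a1 (SGLT1) and Slc5a2 (SGLT2) take up glucose with sodium in the intestine and the kidney. Slc5a4a and Slc5a4b are a neighbouring pair of rodent relatives of the human SGLT3 gene, whose product responds to glucose rather than carrying much of it.

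On GRCm39, Slc22a12 lies on chromosome 19 at 6585875 to 6593062, on the minus strand. It sits wholly inside Nrxn2, a neurexin gene of the opposite strand, and 682 exonic bases, 30.1% of the Slc22a12 exons, are also exonic in Nrxn2. Of all 75-base stretches of Slc22a12 transcripts, 26% were the reverse complement of Nrxn2 transcript sequence. The libraries mark strand, but whether the counting used strand is not given in the sources used here, so reads of both genes may not be fully told apart. Slc5a2, on chromosome 7 at 127864829 to 127871602, shares 597 exonic bases (20.6%) with Rusf1 of the opposite strand. Slc5a4b lies on chromosome 10 at 75893328 to 75946795 on the minus strand, with Slc5a4a to its right at 75983285 to 76025099 on the plus strand. Slc2a9 and Slc5a1 lie on chromosome 5 at 38506616 to 38660486 and at 33261563 to 33320214, and Abcg2 on chromosome 6 at 58561505 to 58672661.

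Reads of Slc5a4b could in principle be mixed with those of its relatives, so their coding sequences were compared. Slc5a4a shared 79.6% of aligned coding bases with Slc5a4b, Slc5a1 73.1% and Slc5a2 65.8%. The window of coding bases 1117 to 1191 holds the longest stretch shared by Slc5a4b and Slc5a4a, 50 bases, and is shown as the place where a read would be hardest to assign. Capitals mark bases that differ from Slc5a4b.
Slc5a4b: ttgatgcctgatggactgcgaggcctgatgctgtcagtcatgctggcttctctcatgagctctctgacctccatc
Slc5a4a: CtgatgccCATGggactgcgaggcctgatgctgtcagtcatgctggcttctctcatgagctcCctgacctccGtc
Slc5a1: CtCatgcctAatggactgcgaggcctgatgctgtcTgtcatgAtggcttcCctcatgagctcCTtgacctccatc
Even in this window Slc5a4a differed at 7 of the 75 bases and Slc5a1 at 8. None of the 3128 stretches of 75 bases in Slc5a4b transcripts occurred in a transcript of another gene.

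The 25 libraries held 32455480 to 54108158 reads and 26859 to 36615 genes with a read. The sum of normalised counts ran from 31274558 to 40952123 in CD and from 24429336 to 72602020 over all libraries, and 4 of the 5 WD libraries were above every CD library. For 3 libraries the title and the treatment field named different diets (CD male 15, LPD male 15 and MD-LPD male 15). They were grouped by title. Some values are also given without them. All 14 sperm and late spermatid markers were detected in every diet. Their summed normalised count had a median of 1085846 in WD, 502493 in MD-WD, 437676 in CD, 349050 in MD-LPD and 270837 in LPD. Epididymal and leukocyte markers were also present, with summed ranges over all libraries of 94536 to 517776 and 16846 to 101214. CD male 10 stood apart from the other CD males. Its Ptprc, a leukocyte marker, was at 37505.5, against 2514 to 3868 in them. It had 26859 genes with a read, and they had 33069 to 35573. The 10 kidney proximal tubule markers had summed ranges of 8638 to 40234 in CD and 10812 to 32357 in WD, with Lrp2 alone at 7338 to 33831 and 8413 to 28628. Of the defining kidney genes, Kap and Miox were at 0 in all CD and all WD libraries, and Slc34a1 had reads in 2 of 5 libraries of each, up to 11.9 in CD and 84.2 in WD (male 11). Kap had reads in LPD male 13 (54) and in MD-LPD males 9 (20) and 15 (106). Miox had reads only in MD-LPD male 15 (14), the only MD-LPD library with Slc22a12 reads. Slc34a1 had reads in 2 of 5 LPD, 5 of 5 MD-LPD and 4 of 5 MD-WD libraries. The part of kidney RNA in the Slc22a12 values was not tested. The 10 enterocyte markers summed to 898 to 1703 in CD and 1408 to 2000 in WD, where Sis was at 0 in both, Fabp2 had reads in 4 of 5 of each, and Slc15a1 in 3 and 1 of 5. In such bulk samples, fewer cells of a type and less RNA per cell cannot be told apart.

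Per kilobase of exon, Slc2a9 and Abcg2 were the members of highest level, at 28.9 and 26.0 normalised counts over the 25 libraries. Slc22a12, Slc5a4b and Slc5a2 followed at 6.32, 5.90 and 5.80, and Slc5a1 was lowest at 0.274. Slc2a9 and Abcg2 had reads in all 25 libraries, Slc5a2 in 22, Slc5a4b in 18, Slc22a12 in 14 and Slc5a1 in 8.

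Slc22a12, the kidney urate exchanger, had no read in any of the 5 CD libraries. In WD it was listed at 41.2, 53.3, 8.56, 38.0 and 14.1 normalised counts in males 10 to 14, a mean of 31.0 ± 19.0 (SD, n = 5). WD and CD did not overlap, which is the pattern the gene was chosen for. Against the floor of 3 counts over the CD group, 0.576 normalised counts, the WD mean was at least 53.9-fold higher, or at least 42.2-fold without the libraries of conflicting labels. The underlying reads were few, 8 to 45 per WD library. None of the 25 libraries held 1 to 5 Slc22a12 reads, so the gene was either at 0 or at 6 reads and above. A 0 of this kind was not particular to it, since 279 of 3954 genes with a mean of 10 to 25 were at 0 in 7 or more libraries, and 43.0% of those had no library with 1 to 5 reads. Even among 12530 genes averaging over 200 reads, 41 were listed at 0 in some library. If a listed 0 is not a true count of 0, the bound does not hold.

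LPD sperm also held Slc22a12 reads in every library, at 48.7, 6.01, 4.01, 15.3 and 23.3 normalised counts in males 10, 11, 12, 13 and 15. The mean of 19.5 ± 18.1 (SD, n = 5) was at least 33.8-fold above the CD floor, or at least 25.1-fold without the libraries of conflicting labels. Its highest library, male 10, was close to the top of the WD range, and its lowest 2 were below every WD library. In MD-LPD, males 9, 10, 11 and 14 were at 0 and male 15 was at 18.8. That single library is among the 3 with conflicting labels, and its treatment field names WD. Without the 3 libraries, Slc22a12 was at 0 in 4 of 4 MD-LPD libraries and had reads in 4 of 4 LPD libraries. In MD-WD, males 10, 12 and 16 were at 20.5, 47.7 and 18.0, and males 9 and 14 were at 0. The mean was 17.2 ± 19.6 (SD, n = 5), at least 29.9-fold above the CD floor, and all WD libraries except male 11 lay within its range of 0 to 47.7. The order of the diet means was WD, LPD, MD-WD, MD-LPD and CD, and the ranges of WD, LPD, MD-WD and MD-LPD overlapped one another.

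Slc5a4b, the SGLT3 relative, was at 0 in CD males 10, 11, 14 and 15 and at 9.37 in male 12, from 11 reads. In WD it was listed at 48.6, 47.4, 19.3, 53.1 and 9.39 in males 10 to 14. The mean was 1.87 ± 4.19 in CD and 35.6 ± 19.8 in WD (SD, n = 5 each), a ratio of 19.0 that again is the pattern behind the choice. Without the libraries of conflicting labels the ratio was 15.2. The lowest WD library and the highest CD library all but met, so the separation of both diets rests on a margin far smaller than 1 read. In MD-WD the values were 34.8, 12.9, 83.8, 9.23 and 19.0 in males 9, 10, 12, 14 and 16, with a mean of 31.96 ± 30.6 (SD, n = 5). All 5 MD-WD libraries held reads, and they spanned the whole WD range and beyond.

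In LPD, where every library held Slc22a12 reads, Slc5a4b had reads in 2 of 5. It was at 0 in males 11, 13 and 15, at 5.35 in male 12 and at 40.8 in male 10. In MD-LPD, where Slc22a12 was mostly at 0, all 5 libraries held Slc5a4b reads, at 9.34, 38.7, 9.42, 13.4 and 8.67 in males 9, 10, 11, 14 and 15. Taken library by library, both genes had reads in 11 of 25 libraries, only Slc22a12 in 3, only Slc5a4b in 7 and neither in 4. The 3 libraries with Slc22a12 alone were LPD, and the 4 with neither were CD.

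**Figure D1:**
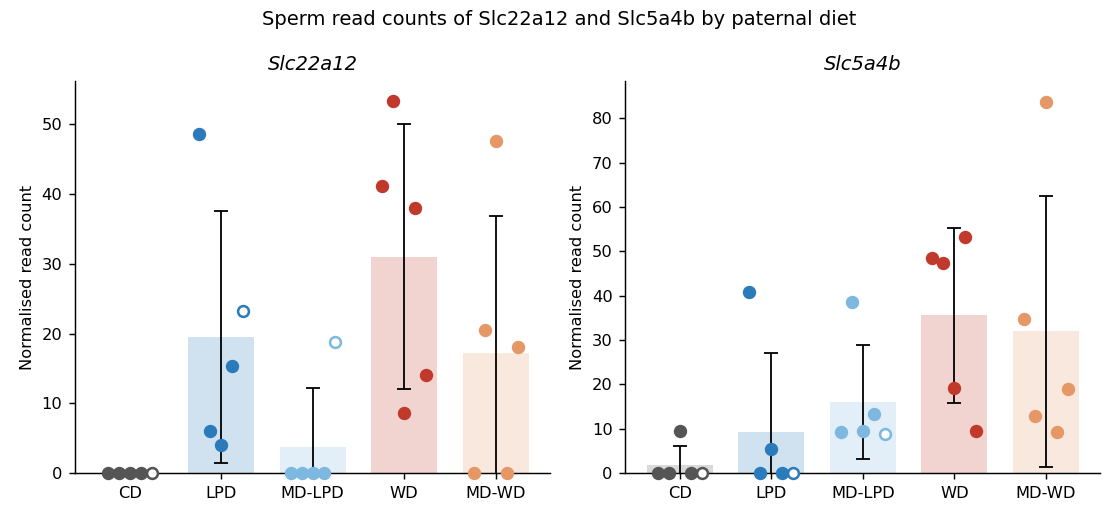
Normalised read count of Slc22a12 (left) and Slc5a4b (right) in each sperm library by diet. Points are males, bars are means and lines are ± 1 SD (drawn from 0 where they pass below it, n = 5); open points are the 3 libraries whose labels conflict. All CD points lie at 0 for Slc22a12, and CD male 12 at 9.37 is the only CD point above 0 for Slc5a4b.

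The effect of methyl donors in the low-protein diet is the comparison in which both genes could be tested. The limma fit across 28311 genes gave a log2 difference of -3.02 ± 1.01 (SE) for Slc22a12 and of 2.23 ± 0.92 for Slc5a4b in MD-LPD against LPD, on the log2 scale of the normalised count plus 1. Unadjusted p-values were 0.00671 and 0.0238, and both adjusted p-values were 1, so neither gene passed the test. The spread behind these p-values was estimated over all 5 diets, including the CD and WD values by which both genes were chosen. An unadjusted p under 0.05 was met by 2 of the 5 members tested and by 1.59% of all genes. The p-values depended on the tool: edgeR on the recovered reads gave -2.21 with an unadjusted p of 0.107 for Slc22a12 and 0.82 with 0.477 for Slc5a4b, and DESeq2 gave 0.102 and 0.496. By adjusted p, limma and edgeR called 0% of all genes here and DESeq2 0.0337%, with no member among the calls of any of the tools. For MD-WD against WD, Slc22a12 differed by -1.87 ± 1.01 and Slc5a4b by -0.33 ± 0.92 on the same scale, without a test. The first was -1.15 without MD-WD male 9 or without MD-WD male 14, and the second ran from -0.78 to -0.02 without single libraries.

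Abcg2, the efflux pump, was present in every library. Its normalised counts were 264.9, 201.2, 163.6, 128.6 and 160.9 in CD males 10, 11, 12, 14 and 15, and 407.8, 501.4, 235.5, 331.5 and 141.6 in WD males 10 to 14. Only the lowest 2 WD libraries were within the CD range. WD and MD-WD had the highest means, 323.6 ± 141.1 and 290.3 ± 130.2, followed by LPD at 245.9 ± 170.5, MD-LPD at 194.7 ± 83.8 and CD at 183.8 ± 52.1 (SD, n = 5). All diets overlapped, and LPD male 10, at 533.9, was the highest library of all. By limma, Abcg2 differed from CD by 0.22 ± 0.40 in LPD, 0.04 ± 0.40 in MD-LPD and 0.60 ± 0.40 in MD-WD (log2 ± SE). The adjusted p-values were 0.965, 0.999 and 0.524. The MD-WD difference was 0.38 without MD-WD male 12, and that of LPD was -0.12 without LPD male 10. Without the 3 libraries of conflicting labels, that of MD-LPD was 0.13. With equal library totals in place of size factors, the differences of LPD and MD-LPD from CD changed sign, and the means per 1000000 reads were 5.21 in CD, 5.98 in WD and 6.37 in MD-WD.

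Slc2a9, the basolateral urate carrier, had similar mean normalised counts in CD and WD, but means per 1000000 reads of 3.50 and 2.58. It was at 139.4, 96.4, 132.9, 118.6 and 115.2 in CD males 10, 11, 12, 14 and 15, with a mean of 120.5 ± 16.8, and WD had a mean of 124.0 ± 20.1 (SD, n = 5). In MD-LPD it was at 188.4, 155.8, 169.6, 144.2 and 180.7 in males 9, 10, 11, 14 and 15. The lowest of these was above the highest CD library. By limma, Slc2a9 was 0.48 ± 0.24 above CD in both MD-LPD and LPD (log2 ± SE), with unadjusted p-values of 0.0585 and 0.0559 and adjusted p-values of 0.999 and 0.594. In LPD the difference was 0.33 without the 3 libraries of conflicting labels. LPD ranged from 121.0 to 251.8 and MD-WD from 85.3 to 227.0, both overlapping CD. In MD-WD the difference from CD was 0.30 ± 0.24 with an adjusted p of 0.566, and 0.15 without MD-WD male 16 and 0.50 without male 12. With equal library totals in place of size factors, the differences from CD were 0.23 in LPD, 0.27 in MD-LPD and 0.01 in MD-WD. That of WD was then -0.49, as was the median of all genes, in place of 0.04.

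Slc5a2, the kidney glucose carrier, was low in all diets and at 0 in CD male 10, LPD male 10 and MD-LPD male 9. The ranges were 0 to 35.6 for CD, 0 to 22.1 for LPD, 0 to 23.8 for MD-LPD, 13.9 to 30.9 for WD and 10.1 to 37.1 for MD-WD. All WD and MD-WD libraries held reads, but their ranges lay largely within that of CD. Slc5a2 differed from CD by -0.61 ± 0.94 in LPD, -0.48 ± 0.94 in MD-LPD and 0.77 ± 0.94 in MD-WD (log2 ± SE, limma), with adjusted p-values of 0.95, 0.999 and 0.692. Its direction in each of these turned when 1 library was left out, to 0.12 without LPD male 10, 0.28 without MD-LPD male 9 and -0.12 without CD male 10. Slc5a1, the intestinal glucose carrier, was at or near 0: the 8 libraries with reads held 2 to 9 of them, and its mean over the 25 libraries was 1.13. It was below the mean of 5 set for testing.

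**Figure D2:**
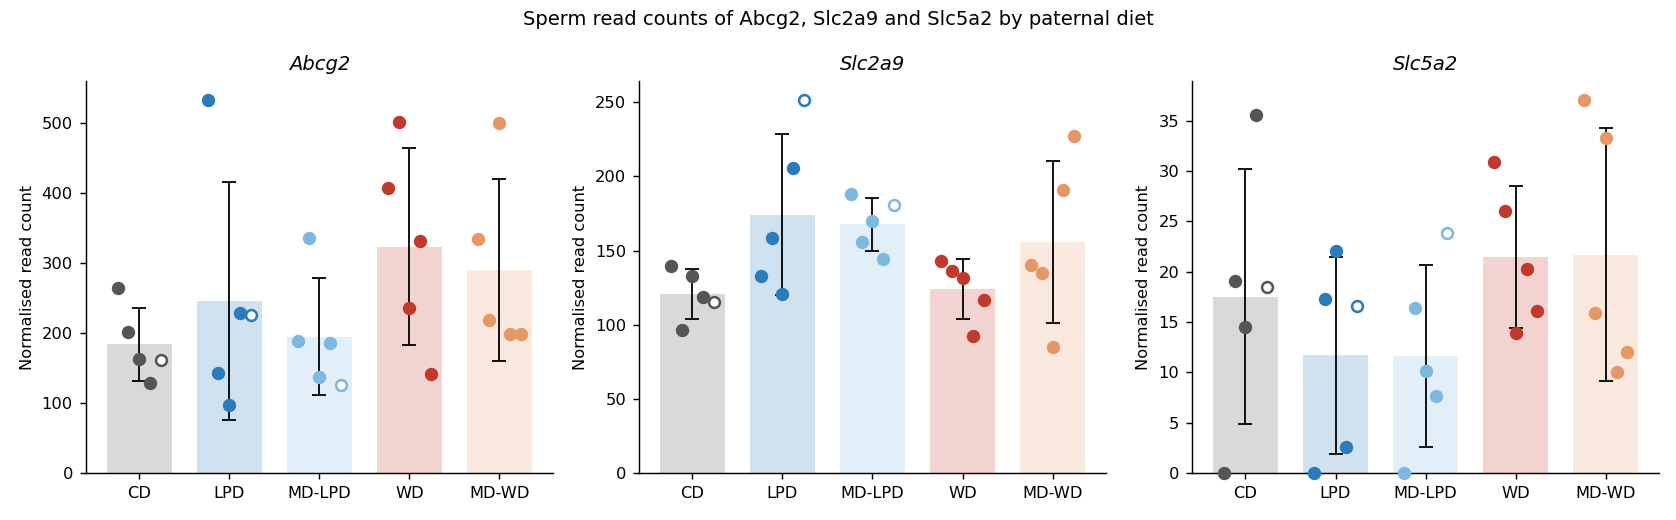
Normalised read count of Abcg2, Slc2a9 and Slc5a2 in each sperm library by diet, with means (bars), ± 1 SD (lines, n = 5) and the 3 libraries of conflicting labels as open points. For Slc2a9 all MD-LPD points (144.2 to 188.4) lie above all CD points (96.4 to 139.4), while for Abcg2 and Slc5a2 every diet overlaps CD. Per 1000000 reads MD-LPD and CD overlapped for Slc2a9 as well.

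Across the diets compared with CD, the members' values shared the same CD libraries, so the comparisons are not independent. By adjusted p, limma and edgeR called 0% of the 28311 genes in each of LPD, MD-LPD, WD and MD-WD against CD and in MD-WD against WD. At an unadjusted p under 0.05, limma gave 8.56% of genes for LPD, 3.22% for MD-LPD, 16.3% for WD and 10.4% for MD-WD against CD, and 5.55% in MD-WD against WD. DESeq2 called 0.0884%, 0.0379%, 0.259%, 0.118% and 0.0253% of its 47500 genes in the same order. Of Slc2a9, Abcg2 and Slc5a2, 0 of 3 passed an adjusted or an unadjusted 0.05 in limma in any comparison tested, and none passed an adjusted 0.05 by edgeR or DESeq2. Groups did not overlap in 2 of 5 members in WD against CD, where 3.86% of all genes did not, and in 1 of 5 in LPD against CD (Slc22a12), where 1.85% did not. Both counts draw on the CD values near 0 by which the genes were chosen, so nothing is read from them. In MD-LPD against CD the count was 1 of 5 (Slc2a9), beside 1.02% of all genes, and Slc2a9 did overlap per 1000000 reads. The size of the methyl donor effect in LPD against that in WD differed by -0.06 ± 0.56 for Abcg2, -0.27 ± 0.34 for Slc2a9 and 0.24 ± 1.34 for Slc5a2 (log2 ± SE, limma, all adjusted p = 1).

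**Figure D3:**
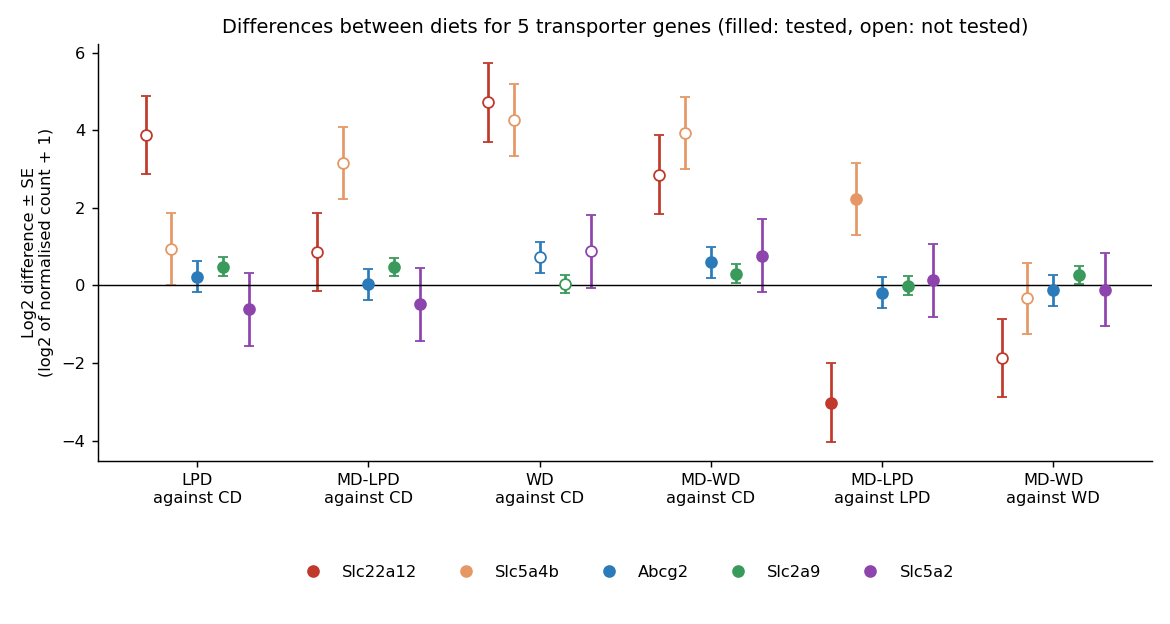
Log2 differences ± SE between diets from the limma fit (log2 of the normalised count plus 1) for 5 transporter genes in 6 comparisons. Filled points were tested and open points were not. Open are all genes in WD against CD, and Slc22a12 and Slc5a4b in every comparison that holds CD or WD. Slc22a12 (-3.02) and Slc5a4b (2.23) lie on opposite sides of 0 in MD-LPD against LPD, neither with an adjusted p under 0.05.

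Library make-up moved with several members. The 5 libraries of highest Abcg2, the 5 of highest Slc22a12 and the 5 of highest Slc5a4b had 4 in common, namely LPD male 10, WD males 10 and 11 and MD-WD male 12. For each of the 3 genes, all 5 had normalised totals of 60289360 or more, above the 40952123 of the highest CD library. Over the 25 libraries, the Spearman correlation with the summed sperm markers was 0.935 for Abcg2, 0.639 for Slc5a4b and 0.351 for Slc22a12, against 0.07 for Slc5a2 and -0.27 for Slc2a9. Slc2a9 instead ran with the summed leukocyte markers, at 0.672. These correlations share library and depth and are descriptions, and the part of library make-up in the diet differences was not tested. After leaving out every library with a total above those of CD, an alternative chosen after seeing the data, 1 WD, 2 LPD, 3 MD-LPD and 3 MD-WD libraries remained. Slc22a12 then had reads in 1 of 1, 2 of 2, 1 of 3 and 2 of 3 of them, and Slc5a4b in 1 of 1, 1 of 2, 3 of 3 and 3 of 3. The WD library left, male 14, was at 14.1 for Slc22a12 and 9.39 for Slc5a4b, and its Abcg2 value of 141.6 was inside the CD range.

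**Figure D4:**
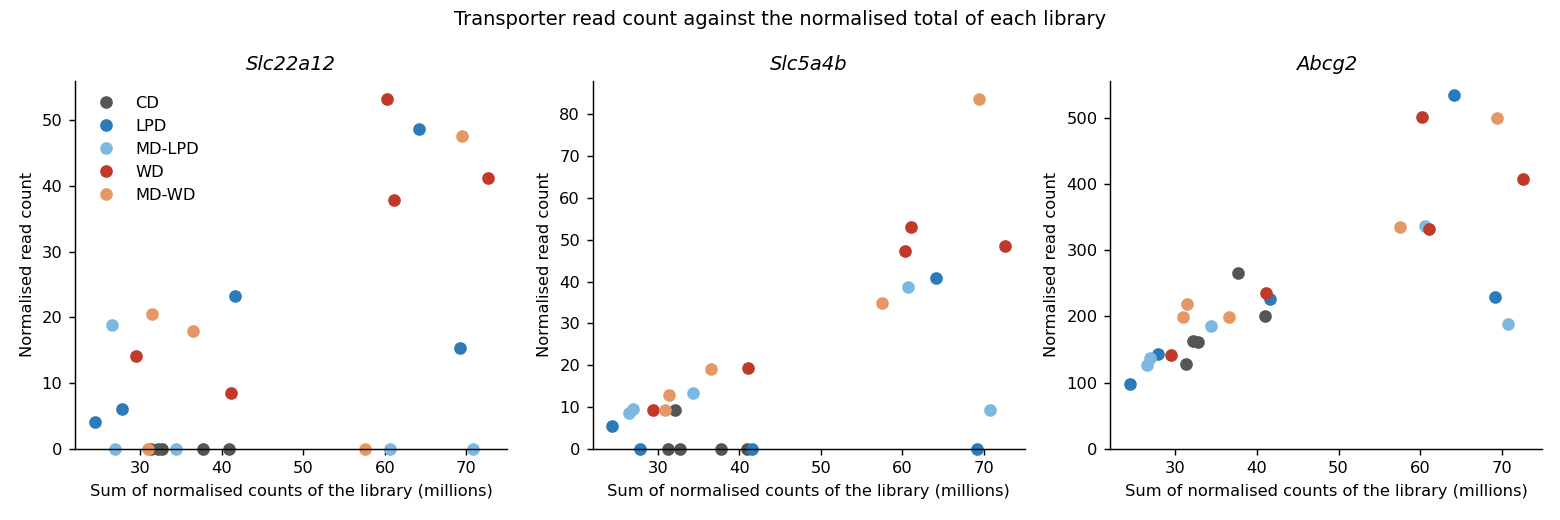
Normalised read count of Slc22a12, Slc5a4b and Abcg2 (vertical) against the sum of normalised counts of the library (horizontal, in units of 1000000), 1 point per library, coloured by diet. The highest Abcg2 values lie at totals above those of CD (Spearman correlation 0.833), with LPD male 13 at 228.9 and MD-LPD male 9 at 188.4 as low points among the highest totals, while Slc22a12 follows the totals less closely (0.353).

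The genes around both transporters were also followed. Nrxn2, which encloses Slc22a12, had reads in all libraries, with means of 71.0 ± 31.7 in CD, 75.8 ± 13.4 in LPD, 53.1 ± 13.6 in WD, 75.9 ± 18.5 in MD-LPD and 77.5 ± 25.8 in MD-WD (SD, n = 5). Its highest LPD, MD-LPD, WD and MD-WD libraries (males 10, 15, 11 and 12, at 90.7, 97.6, 65.2 and 118.5) were also those of highest Slc22a12 in their group, while the highest of all, CD male 10 at 125.5, had no Slc22a12 read. The part of Nrxn2 reads in the Slc22a12 values was not tested. Gm14964, a non-coding gene 3834 bases to the left on the Slc22a12 strand, was at 9.39 ± 5.61 in CD and 10.3 ± 8.31 in WD. The miRNA gene Gm55599 on the right held at most 1 read in any library. Beside Slc5a4b, the zinc finger gene Zfp280b had means of 257.6 ± 165.6 in CD and 223.7 ± 52.9 in WD. The non-coding Gm16222, which overlaps Slc5a4b on the other strand without sharing exons, was at 1.61 ± 2.38 in CD and 6.48 ± 5.37 in WD, with reads in 2 and 4 of 5 libraries.

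The genes most like Slc22a12 by Spearman correlation over the 25 libraries were the non-coding 4930458K08Rik (0.753), the transcription factor Sox17 (0.743) and Abcg8, a subunit of a sterol exporter (0.733). Sox17 was at 52.7 ± 15.0 for WD, 35.3 ± 19.9 for MD-WD, 35.0 ± 18.6 for LPD, 18.4 ± 5.66 for MD-LPD and 16.5 ± 12.8 for CD (mean ± SD, n = 5), with MD-LPD and CD lowest as for Slc22a12. Abcg8 was at 12.9 ± 7.42 in CD and 36.8 ± 20.0 in WD. For Slc5a4b they were Bap1, a nuclear deubiquitinase (0.925), Cyp11b1, a steroid hydroxylase (0.895), and ENSMUSG00000113630 (0.894). Bap1, far more abundant, was at 1274 ± 105 for CD, 1367 ± 159 for LPD, 1453 ± 129 for MD-LPD, 1689 ± 216 for WD and 1571 ± 282 for MD-WD. All its WD libraries were above all CD libraries, and 3.86% of all genes likewise did not overlap, in either direction. Per 1000000 reads the order turned, with Bap1 means of 37.0 in CD and 34.5 in WD. Slc5a4b and Slc22a12 correlated with each other at only 0.485, and the genes named were picked as the highest of all tested genes.

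Other genes of urate handling, purine breakdown and sugar transport gave a background for the members. These lists were drawn up with earlier results of these data known. Of 38 such genes in 4 lists, 37 had a row and 29 were tested, and limma, edgeR and DESeq2 each called 0 of them in the 6 comparisons. Unadjusted p-values under 0.05 were met by 3 of 29 for LPD, 1 for MD-LPD, 3 for WD and 4 for MD-WD against CD, by 0 in MD-LPD against LPD and by 2 in MD-WD against WD, to be read beside the shares of all genes given above. The median log2 difference in WD against CD was 0.35 over the 29 genes and 0.03 over all genes. With equal totals, the median of all genes in that comparison was -0.49, so log2 differences below about that size depend on the scaling.

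Among urate carriers, 6 of 7 tested had positive log2 differences in WD against CD, with a median of 1.001, and 5 of 7 did with equal totals, with a median of 0.52. Pdzk1, the scaffold that holds Slc22a12 at the membrane, had the highest mean of the list, at 7520 ± 3174 in CD and 17380 ± 10558 in WD (SD, n = 5). Its log2 difference was 1.001 ± 0.71 (SE) with an adjusted p of 0.44, and its Spearman correlation with the summed sperm markers over the 25 libraries was 0.993. Slc22a7, an organic anion carrier, had the lowest unadjusted p of the list in WD, at 15.6 ± 11.2 in CD and 75.1 ± 49.4 in WD, a difference of 2.37 ± 1.25 with an adjusted p of 0.334, or of 1.52 without CD male 10. It correlated with the summed sperm markers at 0.853. Slc17a2, a phosphate and urate carrier, differed by 1.90 ± 0.89 in MD-WD against CD with an adjusted p of 0.481. Abcc4, an efflux pump, and Slc16a9, a carnitine carrier linked to urate, were at 363.5 ± 211.2 and 417.3 ± 101.9 in CD and at 413.9 ± 110.3 and 376.7 ± 100.9 in WD. In LPD, Abcc4 had the lowest unadjusted p of the list, with a difference of 0.38 ± 0.30 and an adjusted p of 0.791. That value was 0.67 without CD male 10, 0.25 without LPD male 13 and 0.20 without the 3 libraries of conflicting labels.

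For purine breakdown, 5 of 6 genes had positive differences in LPD, WD and MD-WD and 6 of 6 in MD-LPD against CD. The medians were 0.67 for LPD, 0.58 for MD-LPD, 0.47 for WD and 0.38 for MD-WD. With equal totals only 2 of 6 stayed positive in WD, with a median of -0.05, and 3 of 6 in MD-WD. Xdh, the xanthine oxidoreductase that makes urate, was at 1089 ± 297 in CD and 1901 ± 952 in LPD (SD, n = 5), a log2 difference of 0.70 ± 0.31 with an adjusted p of 0.56. Gda, the guanine deaminase, was at 1443 ± 182 in CD and 2496 ± 1345 in LPD, with a difference of 0.65 ± 0.25 and the same adjusted p. Without LPD male 15, at 4606, the difference was 0.39, and without all 3 libraries of conflicting labels 0.35. Pnp, the purine nucleoside phosphorylase, was 0.51 ± 0.24 above CD in LPD with an adjusted p of 0.573. Ada, the adenosine deaminase, had the lowest unadjusted p of the list in WD and MD-WD, with differences of 1.33 ± 0.71 and 1.34 ± 0.71 and adjusted p-values of 0.339 and 0.49. Those of Ada rest partly on CD male 10, at 0, without which they were 0.25 and 0.26.

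The other sodium-coupled carriers of the Slc5 family mostly had lower levels outside CD: 5 of 6 had negative log2 differences in each of the 4 other diets against CD, with a median of -0.46 in WD. The count was the same with equal totals and, apart from 4 of 6 in MD-LPD, with TMM scaling. Slc5a3, the myo-inositol carrier, was highest, at 5405 ± 1730 in CD and 3345 ± 1690 in WD (SD, n = 5), with a difference of -0.76 ± 0.38 and an adjusted p of 0.315. In LPD its difference was -0.46 ± 0.38 with an adjusted p of 0.80, and ran from -0.71 without CD male 10 to -0.22 without LPD male 13. Slc5a9, a mannose and fructose carrier, was at 1759 ± 911 in CD and 1060 ± 464 in WD, and Slc5a6, the multivitamin carrier, at 190.8 ± 45.9 and 153.9 ± 51.2. The exception was Slc5a10, another mannose and fructose carrier, at 6.37 ± 6.48 in CD, 21.4 ± 11.4 in WD and 23.6 ± 8.60 in MD-WD. Its differences of 2.22 ± 0.96 and 2.47 ± 0.96 had adjusted p-values of 0.275 and 0.481. Slc5a3, Slc5a9 and Slc5a6 correlated with the summed sperm markers at -0.66, -0.58 and -0.82, and Slc5a10 at 0.57.

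In the Slc2 family of facilitative hexose carriers, 6 of 10 tested genes had positive differences in WD against CD, with a median of 0.21, and 3 of 10 with equal totals, with a median of -0.31. Slc2a5, the fructose carrier, was at 570.7 ± 114.1 in CD and 1454 ± 620 in WD (SD, n = 5). Its log2 difference of 1.23 ± 0.42 had the lowest unadjusted p of the list, 0.0074, and an adjusted p of 0.229. Slc2a3, the neuronal-type glucose carrier also known from sperm, was at 1940 ± 188 in CD and 2548 ± 727 in WD, and Slc2a1, the widely expressed one, at 929.3 ± 145.1 and 687.0 ± 153.2. Slc2a1 was 0.38 ± 0.21 below CD on the log2 scale in LPD, where the adjusted p was 0.643. Slc2a6 had means of 187.2 ± 186.4 for CD and 425.2 ± 289.2 for MD-WD, a difference of 1.34 ± 0.45 with an adjusted p of 0.481. It correlated with the summed leukocyte markers at 0.84, and its highest libraries were MD-WD males 16 and 14 and CD male 10. Slc2a5 and Slc2a3 correlated with the summed sperm markers at 0.938 and 0.795. As for the members, the part of library make-up in the differences of these related genes was not tested.

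**Figure D5:**
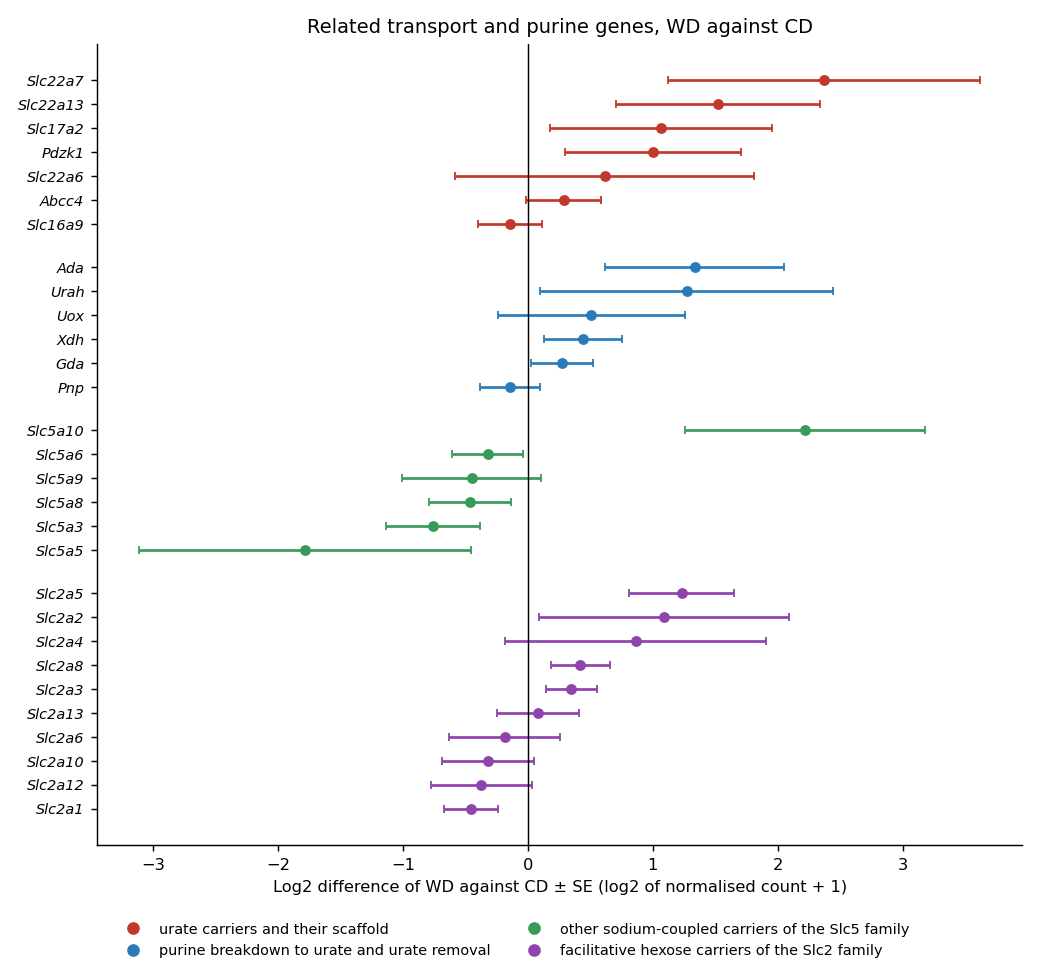
Log2 differences ± SE of WD against CD from the limma fit (log2 of the normalised count plus 1) for the 29 tested genes of 4 related lists, 1 point per gene, coloured by list. Most urate carriers lie right of 0 (6 of 7, or 5 of 7 with equal totals) and most other Slc5 genes left of it (5 of 6 under either scaling), with Slc5a10 at 2.22 as the exception, and none had an adjusted p under 0.05.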

How the data were processed

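Sperm RNA of 25 males was extracted by the authors, made into directional libraries and sequenced as pairs of 75-bp reads. Per the submitters' processing notes, Trim Galore 0.6.7, HISAT2 2.2.1, StringTie 2.2.1 and DESeq2 were used with GRCm39; the annotation release and the strand setting are not given in the sources used here. The deposited values are a normalised signal, counts divided by a size factor per library. Dividing by the step of each library gave whole numbers for 100% of values (tolerance 0.01), which are called reads here. The members and lists were chosen with earlier results of these data known. GENCODE vM39 named 47034 of 47575 genes. Differences were tested with limma 3.58.1 (trend, robust; R 4.3.3) on log2(value + 1) in 1 model of 5 diets, keeping 28311 genes whose mean reached 5, with Benjamini-Hochberg adjustment over all of them. edgeR 4.0.16 (quasi-likelihood) and DESeq2 1.42.0 were run on the recovered reads, and all 3 were also run on simulated counts. The simulation held a single dispersion for all genes and no shift of library make-up. It therefore does not show how the tools treat genes as uneven as Slc22a12. From each related list were named the 3 genes of highest mean and that of lowest unadjusted p in LPD, WD and MD-WD against CD; also the neighbours of Slc22a12 and Slc5a4b and the 3 genes most correlated with each. The study gives 6 males per group, and 5 were analysed here. Lower bounds used 3 counts in the 5 CD libraries together as a floor, which covers counting error only.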

Additional observations from a re-analysis of the deposited data

Results flagged for a closer look

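Among 30 groups of 5 libraries (6 members in 5 diets), 7 held a library whose gap to the others exceeded 0.71 of the group's range; chance alone flags about 1 in 20 groups, and groups with reads in a single library are flagged by construction. Slc22a12 in MD-LPD male 15 was at 18.8 normalised counts with the other 4 at 0, and this is a library of conflicting labels. Slc5a4b in CD male 12 was at 9.37 with the other 4 at 0, in LPD male 10 at 40.8 against at most 5.35, and in MD-LPD male 10 at 38.7 against at most 13.4. Slc5a1 was seen in 1 library only in CD (male 15, at 1.76), LPD (male 15, at 4.44) and WD (male 11, at 2.37).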

How the results depend on the processing

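Depth was low for 4 members, with at most 9 reads of Slc5a1, 39 of Slc5a2, 45 of Slc22a12 and 58 of Slc5a4b in a library. The log2 difference of MD-LPD against LPD kept its sign in all 36 alternatives, from -3.88 to -1.54 for Slc22a12 and from 0.80 to 3.17 for Slc5a4b. Alternatives that left out a CD, WD or MD-WD library could not change the difference, which stayed at -3.02 and 2.23 in them. Unadjusted p was under 0.05 in 33 and 26 of the 36 and the adjusted p never below 0.99, so these counts include alternatives with a fixed difference. The DESeq2 test called 42 genes for LPD, 18 for MD-LPD, 123 for WD and 56 for MD-WD against CD, 16 in MD-LPD against LPD and 12 in MD-WD against WD, where limma called 0. With no filter on low values 1 gene was called in MD-WD against CD and 1 in MD-WD against WD, and with only the 2 groups compared 1 in MD-WD against CD and 1 in MD-LPD against LPD. Leaving out each library in turn gave 0 to 1 called genes in LPD, MD-LPD and WD against CD (1 without CD male 12) and 0 in the other 3 comparisons. Male numbers were not used as pairs in the main fit. The 33 same-numbered pairs correlated at -0.42 to 0.57 (median 0.03, 12 pairs above 0.1) in their deviations from the group means. Differently numbered pairs were not given as a reference, so this does not settle whether the numbers pair the samples. With the replicate block of male numbers 0 genes were called in every comparison and in the difference of methyl donor effects.

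None of the 29 tested log2 differences of members and related genes passed an adjusted p under 0.05 under any alternative, but 36 of 1063 alternative values changed sign, all among Slc2a9, Abcg2 and Slc5a2. The 1063 include alternatives that left out a library of neither group compared, which could not move the difference. For Slc2a9 in MD-LPD against LPD (-0.01) the values were 0.05 with equal totals, 0.11 without the 3 libraries of conflicting labels, 0.31 by treatment field, and -0.12 to 0.14 without single libraries. For Abcg2 they were -0.04 (LPD against CD) and -0.17 (MD-LPD against CD) with equal totals, and -0.02 in MD-LPD against CD with the replicate block, with -0.12 to 0.49 and -0.18 to 0.18 without single libraries. Abcg2 in MD-LPD against LPD was 0.08 by treatment field and -0.45 to 0.16 without single libraries. In MD-WD against WD it was 0.11 with equal totals, 0.0008 with the replicate block, 0.07 by treatment field and -0.39 to 0.06 without single libraries. Slc5a2 in MD-LPD against LPD was -0.02 by edgeR and by DESeq2 and -0.61 to 0.90 without single libraries. In MD-WD against WD it was 0.11 with equal totals, 0.01 by edgeR and by DESeq2, 0.49 with the replicate block and -0.34 to 0.10 without single libraries. Against CD, Slc5a2 without single libraries ran from -1.50 to 0.12 in LPD, -1.37 to 0.28 in MD-LPD and -0.12 to 1.18 in MD-WD. The cause of these changes was not tested.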
